A study of Mus musculus with 15 samples.

Results

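Carbon tetrachloride (CCl4) given to chow-fed mice was compared with OO, the arm without CCl4, in whole liver RNA. The comparison takes 4 of the 15 libraries of the series. These are the 2 CCl4 libraries with chow and every OO library with chow, which came from 2 substudies and were pooled as 1 control group. All 24499 genes of the count tables entered, and 14778 passed the filter on low counts. The animals were adult male C57BL/6 mice in every arm, and the labels do not give their age in weeks. CCl4 animals received 0.2 ml/kg by intraperitoneal injection 2 times a week for 6 weeks. Libraries 16 and 17 (CCl4+CCl4/chow) then came from the arm kept on chow with CCl4 at 0.5 of that dose, and were taken at day 20. Library 12 (OO+OO/chow) is the OO library of the same substudy, 2-4, also at day 20. Library 5 (OO+chow) belongs to substudy 2-3, was taken at day 23, and its label names no second-phase OO. Substudy, day and second-phase OO therefore differ together within the control pair and cannot be told apart. OO is not spelled out in the labels and is kept as they write it. Whether each library came from its own animal is not in the labels, and the p-values describe only the spread among these libraries, which may be technical.

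CCl4 is turned into a reactive radical by cytochrome P450 enzymes, above all CYP2E1, in the hepatocytes around the central vein, and those cells are the ones it kills. The hepatocytes in the innermost ring around that vein take up glutamate and ammonia and make glutamine, with glutamine synthetase (Glul) and ornithine aminotransferase (Oat) as their best-known enzymes. After repeated injury, surviving hepatocytes divide, hepatic stellate cells turn into matrix-producing myofibroblasts, and monocyte-derived macrophages enter the tissue. In bulk tissue, fewer cells of a type and less RNA per cell cannot be told apart.

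Gene counts were 12376433 to 14999801 in the 4 chow libraries and 10347844 to 28843258 in all 15. Summed hepatocyte markers were 79392 to 118878 CPM without TMM scaling in the 4 libraries, and none of the 7 was at 0. Gene levels given as CPM are scaled by TMM-normalised library size unless said otherwise, and marker sums are not scaled. The control libraries 5 and 12 had a Pearson correlation of 0.978 over genes on the log2 CPM scale, and the CCl4 libraries 16 and 17 of 0.977. Genes are not independent replicates, so these values are a description. In pairs of a control and a CCl4 library the correlation was 0.955 to 0.971. Library 12 was closer to both CCl4 libraries, at 0.971 and 0.964, than library 5 was, at 0.958 and 0.955.

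Exocrine pancreas transcripts were carried in 1 of the 2 control libraries, library 12. These genes encode the digestive proenzymes of pancreatic acinar cells and are not normally active in hepatocytes. Summed over 8 acinar markers, the level without TMM scaling was 108 CPM in library 12, 0.6 CPM in library 5, 0.788 CPM in library 16 and 0.298 CPM in library 17. Of the 8 markers, 7 were at 0 in libraries 5 and 17, 5 in library 16 and 1 in library 12. The lipase gene Pnlip was at 23.8 CPM without scaling in library 12 and at 0 in libraries 5, 16 and 17. The elastase gene Cela2a, also without scaling, was at 25.9 CPM in library 12 and at 0.6, 0.631 and 0.298 CPM in libraries 5, 16 and 17. A second library outside the comparison, library 6 of the OO ethanol arm at day 23, had Cela2a at 19.8 CPM and Pnlip at 18.7 CPM without scaling.

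Of the 36 pancreas genes in the tables, 26 passed the filter and 0 were called by edgeR's quasi-likelihood test, with 16 lower and 1 higher at an unadjusted p under 0.05. Over all 14778 genes tested, 873 were lower and 1339 higher at that level. DESeq2 called 4 of the pancreas genes lower and 1 higher. With library 12 as the only control, 11 were called lower, and with library 5 as the only control, 0. The test therefore does not mark them in the pooled comparison, and their fitted changes rest on library 12. Some members did not follow library 12. Spink1, a trypsin inhibitor, was at 0.195 and 0.237 CPM in the controls and 2.34 and 2.79 CPM in the CCl4 libraries. Dmbt1, a mucosal scavenger receptor gene, was highest in library 5 at 22.1 CPM, and Cela1 was found in all 4 libraries at 6.14 to 21.5 CPM. Leaving the whole list out of library sizes and tests gave 228 called genes against 219 with it.

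**Figure D1:**
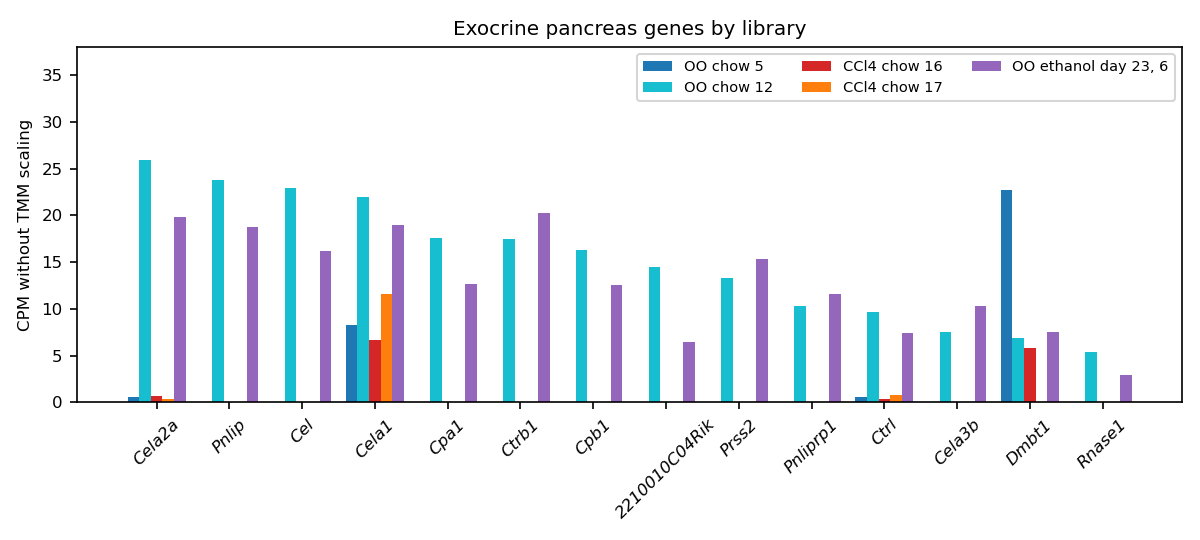
Exocrine pancreas genes with at least 5 CPM in library 12, in CPM without TMM scaling on a linear axis, as 1 bar per library. Libraries 12 and 6 carry nearly the whole set, while libraries 5, 16 and 17 show bars only for Cela1, Dmbt1 and traces of Cela2a and Ctrl.

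Under chow, the genes called higher in CCl4 livers included 12 of 28 cell cycle genes and 4 of 30 matrix genes, and those called lower included Oat, Glul, Slc1a2 and 5 Cyp2c genes. Of the 14778 genes tested, 219 (1.48%) were called at an adjusted p under 0.05 by edgeR's quasi-likelihood test, 161 (1.09%) higher and 58 (0.392%) lower in CCl4. By the same test 1339 were higher and 873 lower at an unadjusted p under 0.05. DESeq2 called 580 of the 14778, 404 higher and 176 lower. The median log2 change over all tested genes was -0.01. All 219 had no overlap between the 2 CCl4 and the 2 OO libraries. Across all tested genes that holds for 22.2% in the higher and 20.6% in the lower direction. The median log2 change was 2.20 over the genes called higher and -1.86 over those called lower.

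The number of calls rested on library 5 and library 17. Without library 5 the test called 28 genes, 3 higher and 25 lower, and 17 of them were among the 219. Without library 17 it called 19, 6 higher and 13 lower, all 19 among the 219. Without library 12 it called 362, of which 158 were among the 219, and without library 16 it called 153, of which 117 were. Library 12 lay above library 5, on the side of the CCl4 libraries, in 136 of the 161 genes called higher. Among the 58 called lower it lay above library 5 in 11. Calls that held in all 14 alternative analyses numbered 14, of which 12 were lower: Oat, Glul, Lhpp, Fitm1, Tenm3, Serpina7, Npr2, Snhg11, Plbd1, Cyp2c38, Cyp2c67 and Cyp2c29. The 2 that were higher were the oxysterol hydroxylase gene Cyp39a1 and the spindle gene Aspm.

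**Figure D2:**
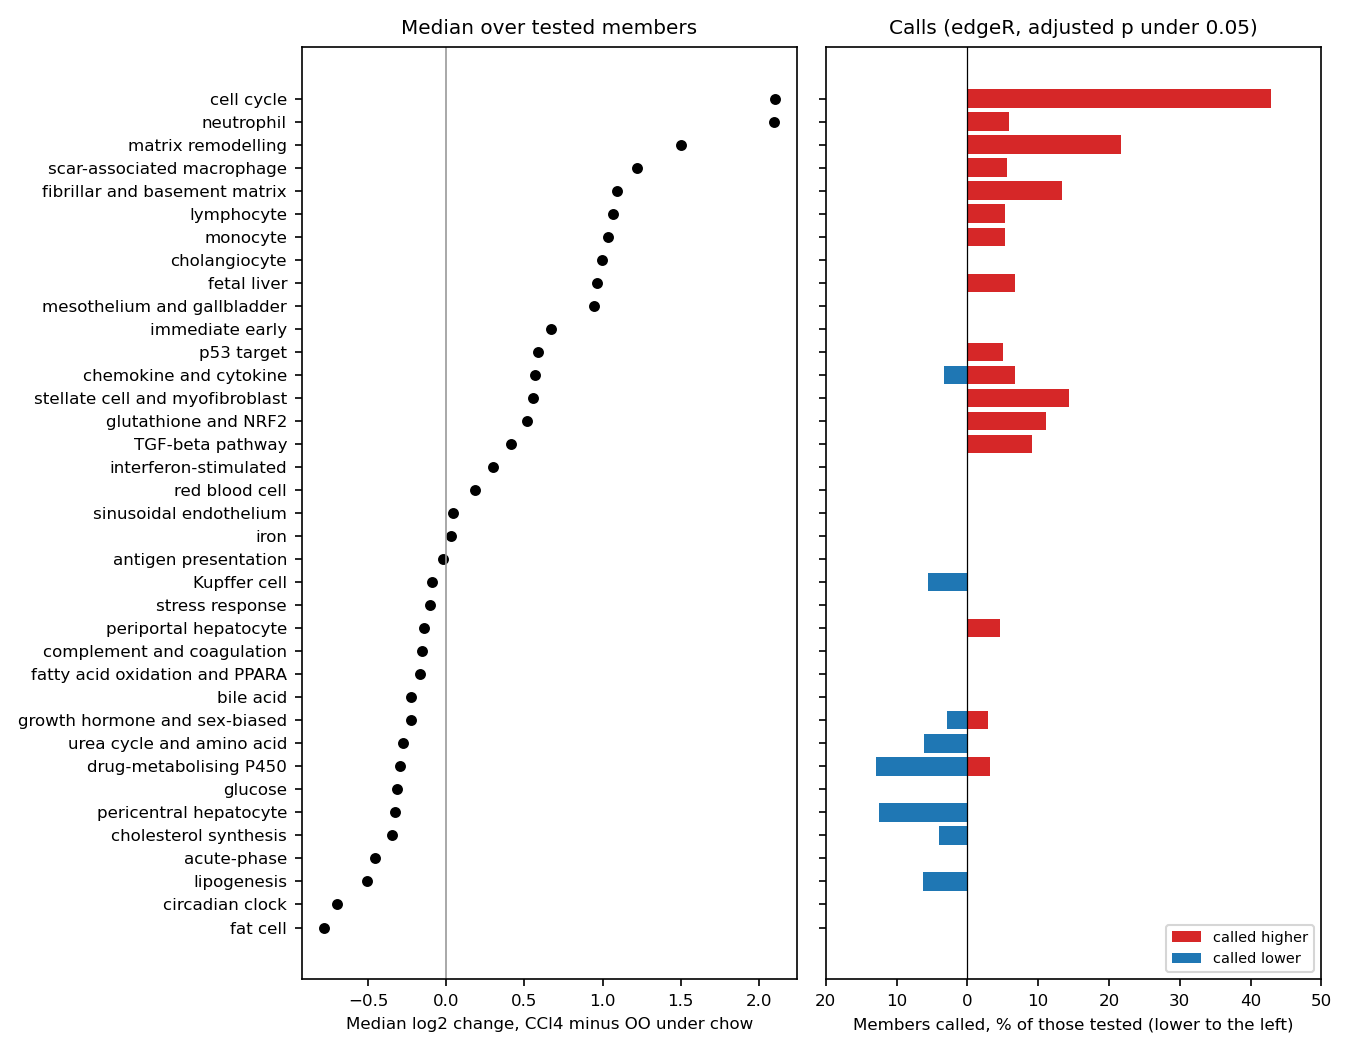
The left panel gives the median log2 change (CCl4 minus OO under chow) over the tested members of 37 gene lists, and the right panel the share of tested members called higher (red) or lower (blue). The cell cycle list reaches 42.9% called higher, and the lower calls lie in the P450, pericentral, metabolic, growth hormone, Kupffer cell and chemokine lists. The pancreas list is not drawn.

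The glutamine genes of the pericentral hepatocyte were among the 12 largest decreases. Oat, which links ornithine to glutamate in the mitochondrion, stood at 1305 and 1059 CPM in OO libraries 5 and 12 and at 41 and 54 CPM in CCl4 libraries 16 and 17. The CCl4 libraries were both far below the controls, a log2 change of -4.64 ± 0.29 (SE; edgeR adjusted p = 6.99e-06). Glul stood at 1125 and 1059 CPM in OO and 139.7 and 106 CPM in CCl4, a log2 change of -3.15 ± 0.31 (edgeR adjusted p = 0.000573). Slc1a2, which carries glutamate into the pericentral hepatocyte, fell from 343 and 259 CPM to 6.88 and 2.99 CPM, a log2 change of -5.94 ± 1.09 (SE; edgeR adjusted p = 0.0219). Its call was lost without library 5 (adjusted p = 0.148), 16 (0.0769) or 17 (0.253), while Oat and Glul were called without any 1 of the 4 libraries. In mm10 the minus-strand gene Oat spans chr7:132557478-132576398, and the plus-strand genes Glul and Slc1a2 span chr1:153899944-153909723 and chr2:102658659-102790784.

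Most of the pericentral list was not called. Of its 24 tested members these 3 were called lower (12.5%, against 0.392% of all genes) and 0 higher. The list's median log2 change was -0.33. Cyp2e1, the enzyme that activates CCl4, was at 4238 and 3874 CPM in OO and 1235 and 1235 CPM in CCl4, without overlap and with a log2 change of -1.72 ± 0.46 that was not called (edgeR adjusted p = 0.0955). Cyp1a2 was at 252 and 294 CPM against 339 and 205 CPM, so that the groups overlapped. Of the Wnt pathway genes of the same zone, Lgr5 was at 8.52 and 8.38 CPM in OO and 7.24 and 4.98 CPM in CCl4, and Axin2 at 9.10 and 8.77 CPM against 14 and 8.17 CPM, with overlap in Axin2. The ammonium carrier Rhbg was at 14.1 and 14.1 CPM in OO and 10.8 and 10.7 CPM in CCl4 (edgeR adjusted p = 0.481). None of these 5 genes was called by edgeR, and the difference between them and the called 3 was not tested. DESeq2 called 9 of the list, 8 lower and 1 higher, with Cyp2e1 among them (adjusted p = 0.00455).

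**Figure D3:**
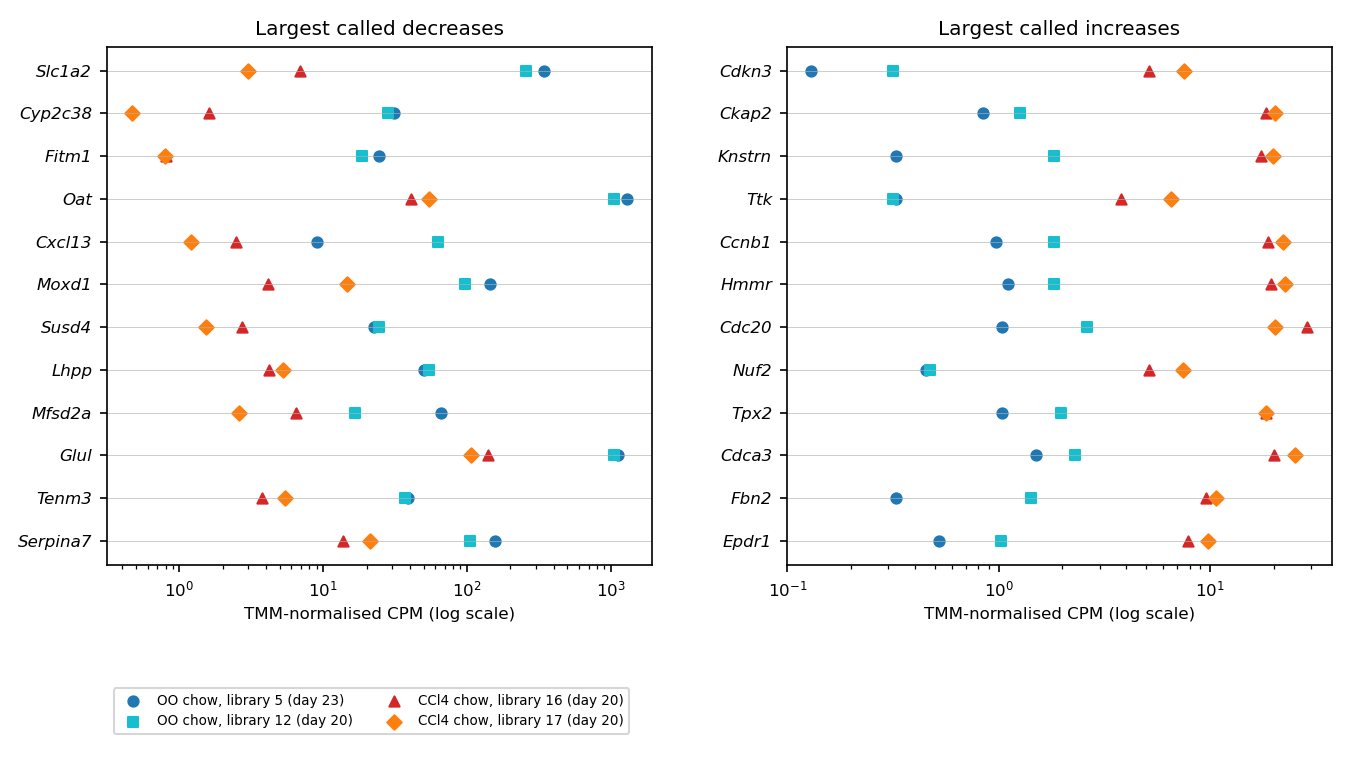
TMM-normalised CPM on a log axis in the 4 chow libraries, 1 symbol per library, for the 12 largest called decreases (left) and the 12 largest called increases (right) among genes with a group mean of at least 5 CPM. In each gene the OO symbols and the CCl4 symbols do not overlap; Oat is among the most abundant of the decreases, and library 12 stands to the right of library 5 for most of the increases.

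Lhpp, a histidine phosphatase gene, lies near Oat at chr7:132610638-132706420 on the opposite strand, with 34239 bases between them that hold 1 other gene of the tables. It was at 50.5 and 54.1 CPM in OO and 4.17 and 5.24 CPM in CCl4, a log2 change of -3.47 ± 0.22 (SE; edgeR adjusted p = 6.99e-06). Both genes were called without any 1 of the 4 libraries. All 58 genes called lower had no overlap, so low values in the same 2 libraries are shared by all of them. Whether the 2 neighbours change together was not tested.

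The called Cyp2c genes numbered 6, of which 5 were lower. The number of Cyp2c genes tested is not given here. Cyp2c39, Cyp2c40, Cyp2c44, Cyp2c50 and Cyp2c70 were tested and not called. Among all genes tested 0.392% were called lower and 1.09% higher. Cyp2c genes encode cytochrome P450 monooxygenases of drug and arachidonic acid metabolism. The 6 called lie in 1 cluster on chromosome 19 between 39007019 and 40073827 of mm10. Cyp2c38 was at 31.3 and 28.4 CPM in OO and 1.61 and 0.465 CPM in CCl4 (log2 change -4.86 ± 0.51, edgeR adjusted p = 0.00107). Cyp2c29, an abundant member, was at 1350.4 and 1018 CPM against 319 and 279 CPM (-1.98 ± 0.22, edgeR adjusted p = 0.00122). Cyp2c37 fell from 274 and 169.8 CPM to 35 and 34 CPM. Cyp2c54 and Cyp2c67 fell by 1.49 and 2.13 on the log2 scale.

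Cyp2c55, at the start of the cluster, was called in the other direction, at 4.23 and 3.56 CPM in OO and 12.5 and 11.7 CPM in CCl4 (log2 change 1.63 ± 0.31, edgeR adjusted p = 0.0255). The whole P450 list had 4 of 31 members called lower and 1 higher, with a median log2 change of -0.30. The calls of Cyp2c38, Cyp2c29 and Cyp2c67 held without any 1 of the 4 libraries. Those of Cyp2c37, Cyp2c54 and Cyp2c55 were lost without library 5 (edgeR adjusted p = 0.236, 0.354 and 0.231), 16 (0.0979, 0.141 and 0.0744) or 17 (0.239, 0.253 and 0.142), and that of Cyp2c55 also without library 12 (0.0729). Reads that fit more than 1 place were not counted for genes, so levels of close copies such as these are uncertain. Cyp2b10, the classical target of the receptor CAR, was at 4.81 and 4.27 CPM in OO and 18.7 and 10.3 CPM in CCl4 and was not called (edgeR adjusted p = 0.0582).

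Other genes with large decreases came from several classes. Fitm1, an endoplasmic reticulum protein that sorts triglyceride into lipid droplets, was at 24.4 and 18.7 CPM in OO and 0.805 and 0.797 CPM in CCl4 (log2 change -4.74 ± 0.38, edgeR adjusted p = 8.06e-05). Tenm3, a teneurin adhesion gene, was at 39.1 and 37.3 CPM against 3.73 and 5.44 CPM, and Serpina7, encoding thyroxine-binding globulin, at 156 and 105 CPM against 13.8 and 21.2 CPM. In these 3 genes both control libraries lay far above both CCl4 libraries, and each was called without any 1 library. Susd4, a complement regulator, fell from 22.5 and 24.4 CPM to 2.71 and 1.53 CPM, and leaving out library 17 ended that call (edgeR adjusted p = 0.0824). Moxd1, a monooxygenase-like gene, fell from 144 and 97.1 CPM to 4.10 and 14.6 CPM, which was not called with library 5 left out (0.0575).

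For some decreases the control libraries were far apart. Cxcl13, the B cell chemokine, was at 9.10 CPM in library 5 and 62.7 CPM in library 12, against 2.49 and 1.19 CPM in CCl4 (log2 change -4.29 ± 0.79). It was called with library 12 as the only control (edgeR adjusted p = 0.00223) and not with library 5 as the only control (0.0643), nor without library 16 (0.0685) or 17 (0.253). Mfsd2a, a carrier of lysophosphatidylcholine, went the other way, at 66.2 CPM in library 5 and 16.6 CPM in library 12 against 6.44 and 2.59 CPM in CCl4. Its call was lost without library 5 (0.437), 16 (0.0649) or 17 (0.308).

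In the lipogenesis, cholesterol synthesis and amino acid lists every called gene was lower, against 0.392% of all genes called lower. In the lipogenesis list 2 of 32 tested members were called lower and 0 higher, with a median log2 change of -0.51. They were Pparg, the fat-storage nuclear receptor, at 10.5 and 10.6 CPM in OO and 3.88 and 4.45 CPM in CCl4, and the fatty acid elongase Elovl5, at 845 and 616 CPM against 450.5 and 394 CPM. The OO libraries of day 0 had Elovl5 at 268 and 260 CPM, below both CCl4 chow libraries. Got1, the cytosolic aspartate aminotransferase, was called in the urea cycle and amino acid list beside Oat, at 254 and 203 CPM against 122 and 104 CPM (2 of 33 lower, median -0.28). Tm7sf2, a sterol reductase of cholesterol synthesis, was the 1 called of 25 in its list, at 125 and 92.9 CPM against 66.7 and 50.7 CPM. Hsd3b5, a male-type liver steroid dehydrogenase, was at 128 and 132 CPM in OO and 18.2 and 40.8 CPM in CCl4. Without library 5 none of the calls of Pparg, Elovl5, Got1, Tm7sf2 and Hsd3b5 was kept (edgeR adjusted p = 0.118, 0.354, 0.344, 0.488 and 0.247), without library 16 none (0.0626, 0.0645, 0.0689, 0.0543 and 0.157), and without library 17 none (0.0987, 0.275, 0.275, 0.362 and 0.0985). Hsd3b5 was also lost without library 12 (0.0745) and was not called by DESeq2 (adjusted p = 0.101).

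By edgeR the cell cycle list held the most calls of any list. Of the 28 members of the cell cycle list 12 were called higher (42.9%) and 0 lower, against 1.09% of all genes called higher, and the list's median log2 change was 2.10. Mki67, the Ki-67 proliferation antigen, was at 12.2 and 19.5 CPM in OO and 117 and 121 CPM in CCl4, a log2 change of 2.91 ± 0.47 (edgeR adjusted p = 0.0131). The mitotic cyclin Ccnb1 was at 0.975 and 1.82 CPM against 18.9 and 22.2 CPM (log2 change 3.90 ± 0.68), and its partner kinase Cdk1 at 2.15 and 3.56 CPM against 13.5 and 18.1 CPM. Cdc20, the activator of the anaphase-promoting complex, was at 1.04 and 2.61 CPM in OO and 28.8 and 20.2 CPM in CCl4. In each of these 4 genes both CCl4 libraries lay above both controls, and library 12 lay above library 5.

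The 12 largest called increases included Cdkn3, a phosphatase of cyclin-dependent kinases, at 0.13 and 0.316 CPM in OO and 5.12 and 7.57 CPM in CCl4 (log2 change 4.83 ± 0.73). The spindle and kinetochore genes Ckap2, Knstrn, Ttk, Hmmr, Nuf2 and Tpx2 and the cell division gene Cdca3 were also among them, with log2 changes of 3.59 to 4.20. In Hmmr the values were 1.11 and 1.82 CPM against 19.5 and 22.5 CPM, and in Tpx2 1.04 and 1.98 CPM against 18.4 and 18.5 CPM. The same genes had low control levels in both libraries, from 0.316 to 2.29 CPM over these 7. Pcna and Mcm4, DNA replication genes of the same list, were not called. Pcna, the polymerase clamp, was at 30.6 and 24.7 CPM in OO and 24.5 and 35.3 CPM in CCl4 and Mcm4, a helicase subunit, at 8.71 and 8.77 CPM against 8.12 and 9.10 CPM, so that the groups overlapped in both. Pcna and Mcm4 were singled out after their values were seen.

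The mitotic calls depended on the libraries and on the tool. Without library 5, 0 of the 12 cell cycle calls remained by edgeR (adjusted p of 0.14 to 0.473), although their log2 changes were still 2.00 to 3.49. Without library 17, 1 of the 12 remained. Without library 12, 7 remained, and without library 16, 8. Of the 12 largest increases 0, 2, 12 and 11 were called without libraries 5, 17, 12 and 16. With limma-voom 7 of the 12 largest increases lost their call, and with lane as a random block 7 did. DESeq2 called all 12 of the cell cycle genes (adjusted p of 1.15e-09 to 0.00406) and all 12 largest increases.

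Promoters of mitotic genes commonly carry CCAAT boxes, the binding motif of the factor NF-Y, and 3 of the called genes are shown for that reason. The sequences are the 250 bases before the transcription start, 5′ to 3′ on the gene's strand, from RefSeq on GRCm38.p6. CCAAT on either strand is in capitals, so that a box on the other strand reads ATTGG.
Cdc20, chr4:118437344-118437593, minus strand: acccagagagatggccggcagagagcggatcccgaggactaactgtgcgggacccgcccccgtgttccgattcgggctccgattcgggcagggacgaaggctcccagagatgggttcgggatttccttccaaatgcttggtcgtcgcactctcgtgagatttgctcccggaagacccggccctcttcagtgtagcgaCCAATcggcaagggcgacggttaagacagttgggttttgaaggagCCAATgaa
Ccnb2, chr9:70421555-70421804, minus strand: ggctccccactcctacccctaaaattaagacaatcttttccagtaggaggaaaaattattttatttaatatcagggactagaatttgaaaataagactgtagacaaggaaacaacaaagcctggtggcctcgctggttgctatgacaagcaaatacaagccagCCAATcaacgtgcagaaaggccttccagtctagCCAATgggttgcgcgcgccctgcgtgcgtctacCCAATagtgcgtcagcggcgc
Mki67, chr7:135716380-135716629, minus strand: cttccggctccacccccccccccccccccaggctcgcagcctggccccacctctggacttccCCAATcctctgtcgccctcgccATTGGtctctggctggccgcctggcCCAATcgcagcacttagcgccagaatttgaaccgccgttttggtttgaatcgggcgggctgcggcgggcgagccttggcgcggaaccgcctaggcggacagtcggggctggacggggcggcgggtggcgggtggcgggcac
Cdc20 had 2 boxes, both on the gene's strand, Ccnb2 had 3 and Mki67 had 3, of which 1 was on the other strand. Of the 28 genes of the cell cycle list 21 had a promoter in the table, and 18 of these (85.7%) held CCAAT on either strand in the 250 bases. At least 2 boxes were found in 13 (61.9%). Among all 27025 promoters 34.5% held 1 box or more and 10.5% held at least 2. Among the called genes with a promoter the shares with a box were 47 of 108 (43.5%) for those higher and 19 of 46 (41.3%) for those lower. A match in these letters is a description and not a measured binding site.

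Fewer matrix genes than cell cycle genes were called by edgeR, but not by DESeq2. DESeq2 called 18 of 30 matrix genes and 14 of 28 cell cycle genes, all higher. At an unadjusted p under 0.05 by edgeR, 24 matrix genes and 19 cell cycle genes were higher. In the list of fibrillar and basement membrane matrix 4 of 30 members were called higher (13.3%, against 1.09% of all genes) and 0 lower. The list's median log2 change was 1.09. Lum, encoding the collagen-binding proteoglycan lumican, was at 11.4 and 25.4 CPM in OO and 73.7 and 149.8 CPM in CCl4 (log2 change 2.61 ± 0.47, edgeR adjusted p = 0.0205). Col6a3, a chain of collagen VI, was at 35.2 and 63.8 CPM against 136 and 175 CPM. The other two were thrombospondin 2 (Thbs2) and periostin (Postn), with log2 changes of 1.85 and 1.25.

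The main scar collagens were higher in both CCl4 libraries but were not called. Col1a1 was at 9.43 and 35.7 CPM in OO and 104 and 80.4 CPM in CCl4 (log2 change 2.04 ± 0.66, edgeR adjusted p = 0.157). Col3a1 was at 98 and 275 CPM against 604 and 922 CPM (2.03 ± 0.55, edgeR adjusted p = 0.0981), and Col1a2 at 25.4 and 77.9 CPM against 189 and 243 CPM. In these 3 collagens library 12 was more than 2 times library 5, and the groups did not overlap. With library 5 as the only control 17 of the 30 matrix genes were called, and with library 12 as the only control 0. DESeq2 called 18 of the 30 in the pooled comparison.

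Enzymes that build and cut the matrix were called in 5 of 23 tested members, all higher, against 1.09% of all genes called higher. Their median log2 change was 1.5. Mmp2, the gelatinase made by activated stellate cells, was at 3.58 and 14.1 CPM in OO and 46.2 and 49.7 CPM in CCl4, a log2 change of 2.45 ± 0.48 (edgeR adjusted p = 0.0284). Adamts2, which trims the ends of procollagen, was at 8.71 and 10.4 CPM against 24.2 and 25 CPM, a smaller change with close values within each group. The others were the collagen-cutting cathepsin Ctsk (2.58), the metalloprotease Adam12 (1.86) and the lysyl hydroxylase Plod2 (2.16), given as log2 changes. Timp1, a metalloprotease inhibitor, was at 0.39 and 1.26 CPM in OO and 1.46 and 10.8 CPM in CCl4, so that library 17 stood apart, and was not called. Of the 9 calls in the 2 matrix lists 0 remained without library 5 (edgeR adjusted p of 0.197 to 0.428) or without library 17 (0.15 to 0.334), 6 without library 16 and 9 without library 12.

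Stellate cell genes were called in 3 of 21 tested members, all higher, against 1.09% of all genes called higher. The list's median log2 change was 0.55. Pdgfra, a growth factor receptor of mesenchymal cells, was at 16.7 and 25.1 CPM in OO and 51.7 and 67.2 CPM in CCl4 (log2 change 1.51 ± 0.24, edgeR adjusted p = 0.0123). Reln, the secreted glycoprotein reelin made by stellate cells, was at 155 and 183 CPM against 321 and 384 CPM, and Ltbp2, a matrix protein of the fibrillin family, at 3.77 and 6.64 CPM against 43.8 and 35.3 CPM. Acta2, the smooth muscle actin of contractile myofibroblasts, was at 6.37 and 10.7 CPM in OO and 10.5 and 10.4 CPM in CCl4, with overlap. The summed level of 5 stellate markers without TMM scaling came mostly from Reln. That sum was 232 and 268 CPM in OO and 460 and 592 CPM in CCl4. Its part in the matrix result was not tested.

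Against 1.09% of all genes called higher, the TGF-beta list had 2 of 22 members called, both higher. They were the latent TGF-beta binding protein gene Ltbp3, at 2.34 and 2.37 CPM in OO and 8.12 and 6.84 CPM in CCl4, and Bambi, a decoy receptor, at 2.93 and 2.45 CPM against 6.73 and 9.89 CPM. The ligand gene Tgfb1 was at 4.49 and 6.01 CPM in OO and 9.87 and 4.85 CPM in CCl4 and the groups overlapped. Of these 5 calls in stellate and TGF-beta genes none was kept by edgeR without library 5 (adjusted p of 0.192 to 0.319) or library 17 (0.101 to 0.284). Without library 12 Ltbp3 and Bambi were lost (0.0666 and 0.0967), and without library 16 Ltbp2 and Ltbp3 (0.0671 and 0.0918).

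Few immune genes were called by edgeR, which called 1.09% of all genes higher and 0.392% lower. DESeq2 called 7 of 18 scar-associated macrophage genes, 6 higher and 1 lower. It also called 5 of 19 monocyte and 3 of 17 neutrophil genes, all higher, against 580 of all 14778 genes tested. Trem2, a receptor of scar-associated macrophages, was at 1.5 and 4.58 CPM in OO and 9.58 and 22.9 CPM in CCl4 (log2 change 2.44 ± 0.48, edgeR adjusted p = 0.0285), the 1 called of 18 in its list. Gpnmb, another marker of those cells, was at 2.41 CPM in library 5, 33.7 in library 12, 58.4 in library 16 and 158 in library 17, and was not called (edgeR adjusted p = 0.155). Spp1, the cytokine osteopontin, was at 63.2 and 96.6 CPM against 77.9 and 291 CPM, so that the groups overlapped. The chemokine receptors Ccr2 and Ccr1 of monocytes were called higher, with Ccr2 at 6.83 and 11.2 CPM in OO and 24.6 and 45 CPM in CCl4 and a log2 change of 2.11 for Ccr1. Ncr1, a natural killer cell receptor, was called from values of 0.079 to 1.13 CPM, and DESeq2 gave it no adjusted p.

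The neutrophil list had a median log2 change of 2.09 with 1 of 17 members called, Retnlg at 0.78 and 2.69 CPM in OO and 8.34 and 9.56 CPM in CCl4. The alarmin gene S100a9 was at 10.7 and 33.4 CPM against 91.6 and 104 CPM and was not called (edgeR adjusted p = 0.099). The summed level of 5 neutrophil markers without TMM scaling was 26.1 CPM in library 5, 79.9 CPM in library 12, 192 CPM in library 16 and 232 CPM in library 17. Library 12 thus lay between library 5 and the CCl4 libraries, and with library 5 as the only control 8 neutrophil genes were called.

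Cd163, a haemoglobin scavenger receptor of resident macrophages, was the 1 Kupffer cell gene called of 18, and it was lower, at 58.2 and 83.1 CPM in OO and 38.5 and 24 CPM in CCl4 (log2 change -1.18 ± 0.23). Clec4f, specific to Kupffer cells, was at 216 and 266 CPM against 188 and 192 CPM and was not called. Summed over 5 Kupffer markers without TMM scaling the level was 692 and 1022 CPM in OO and 703 and 762 CPM in CCl4, with overlap. Without library 5 the calls of Trem2, Ccr2, Ccr1, Retnlg, Ncr1 and Cd163 were lost (edgeR adjusted p = 0.312, 0.488, 0.26, 0.319, 0.298 and 0.0521), as they were without library 17 (0.271, 0.341, 0.158, 0.208, 0.253 and 0.253). Without library 12 Ccr2, Ncr1 and Cd163 were lost too (0.0523, 0.0955 and 0.0896), and without library 16 Retnlg and Ncr1 (0.0715 and 0.0628). Libraries 5 and 17 were both run on lane 5. The calls of Trem2 and Ncr1, and that of Bambi above, held with limma-voom (adjusted p = 0.0426, 0.0487 and 0.0484) and were lost with lane as a random block (0.0516, 0.0507 and 0.0594), and Ccr1 was called by neither (0.0528 and 0.0589).

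Genes of glutathione conjugation and reduction were called in 3 of 27 members, all higher, against 1.09% of all genes called higher. The list's median log2 change was 0.52. Gstm3, a mu-class glutathione S-transferase, was at 17.9 and 64.9 CPM in OO and 487 and 313 CPM in CCl4 (log2 change 3.28 ± 0.59, edgeR adjusted p = 0.0199). Gsta1, of the alpha class, was at 0.91 and 1.82 CPM against 11 and 19.3 CPM, and the carbonyl reductase Cbr3 at 0.715 and 0.869 CPM against 3.15 and 5.11 CPM. In Gstm3 the control libraries differed, but both lay far below both CCl4 libraries. Nqo1, the standard target of the factor NRF2, was at 6.96 and 7.51 CPM in OO and 10.8 and 22.2 CPM in CCl4 and was not called. The calls of Gstm3, Gsta1 and Cbr3 were lost without library 5 (edgeR adjusted p = 0.2, 0.289 and 0.197) and without library 17 (0.0824, 0.158 and 0.107), and that of Gstm3 without library 16 (0.0613). Close copies of the Gsta and Gstm genes make these values uncertain.

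A few other genes were called higher. Cyp39a1, which hydroxylates an oxysterol on the way to bile acids, was at 5.46 and 6.80 CPM in OO and 20.9 and 23.1 CPM in CCl4 (log2 change 1.85 ± 0.22, edgeR adjusted p = 0.00178). Outside the contrast Cyp39a1 was at 21.5 and 31.9 CPM in OO and 20.2 and 22.2 CPM in CCl4 at day 0, and at 20.4 to 27.5 CPM in OO and 66.4 to 82.5 CPM in CCl4 with ethanol. The chow controls were thus below all of these libraries, and the CCl4 chow libraries, at 20.9 and 23.1 CPM, were within the range of the day 0 libraries. Aldh1b1, a mitochondrial aldehyde dehydrogenase, was at 96 and 100.5 CPM against 229 and 275 CPM, and Abcd2, a peroxisomal fatty acid carrier, at 13.8 and 8.85 CPM against 35.9 and 46.3 CPM. Ly6d, an epithelial surface protein, was the 1 called of 15 tested fetal liver genes, at 1.76 and 4.11 CPM against 21.5 and 24.5 CPM. Afp, the fetal albumin-like protein, was at 4.75 and 4.66 CPM against 9.29 and 12.8 CPM and was not called. Without library 5 the calls of Aldh1b1 and Ly6d were lost (edgeR adjusted p = 0.26 and 0.476). Without library 17 those of Aldh1b1, Abcd2 and Ly6d were lost (0.182, 0.07 and 0.214), and without library 12 those of Aldh1b1 and Ly6d (0.055 and 0.0534), Ly6d also without library 16 (0.0795).

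Acute-phase genes, which encode plasma proteins of inflammation, had no calls among 28 members by edgeR or by DESeq2, with 1 higher and 3 lower at an unadjusted p under 0.05. Over all 14778 genes tested, 1339 were higher and 873 lower at that level, and DESeq2 called 404 higher and 176 lower. Lcn2, encoding lipocalin 2, was at 139 and 448 CPM in OO and 548 and 329 CPM in CCl4, and Saa1, encoding serum amyloid A1, at 798 and 1955 CPM against 706 and 973 CPM, with overlap in both. Bile acid genes had no edgeR call among 22 members, with 9 lower at an unadjusted p under 0.05 and 3 called lower by DESeq2. Cyp7a1, the first enzyme of the classical pathway, was at 299.9 and 182 CPM in OO and 312 and 341 CPM in CCl4. Interferon-stimulated genes had no call in 25 members by edgeR or DESeq2, with 2 higher at an unadjusted p under 0.05. Cholangiocyte genes had no edgeR call in 17 and 1 by DESeq2, with 6 higher at an unadjusted p under 0.05, and Krt19, the bile duct keratin, was at 1.5 and 1.42 CPM against 1.76 and 4.98 CPM. Of the 30 genes reported whatever their p, 5 were called: Glul, Hsd3b5, Mki67, Trem2 and Cd163.

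Clock genes separated library 5 from the other 3 chow libraries. They form the transcription loop that gives cells a daily rhythm. Dbp, its classical output factor, was at 35.4 CPM in library 5 and at 2.45, 1.83 and 1.93 CPM in libraries 12, 16 and 17. Per3 was at 41.5 CPM in library 5 and 6.80 to 7.77 CPM in the others, and Tef at 174 against 35.9 to 49 CPM. Arntl, the activator that peaks in the opposite phase to Dbp, was lowest in library 5, at 6.96 CPM against 35.3 to 42.2 CPM, and its relative Npas2 likewise, at 0.65 against 5.06 to 9.14 CPM.

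Of the 21 clock genes 0 were called by edgeR and 2, both lower, by DESeq2, with 1 higher and 11 lower at an unadjusted p under 0.05. Over all 14778 genes tested, 1339 were higher and 873 lower at that level. The list's median log2 change was -0.70. With library 5 as the only control 9 were called, and with library 12 as the only control 0, with a median of -0.12.

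**Figure D4:**
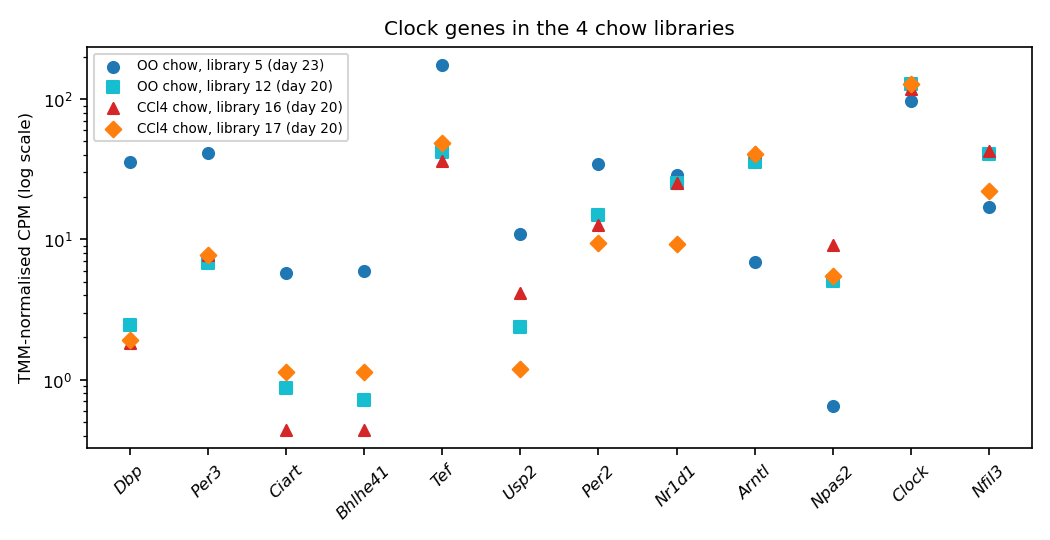
TMM-normalised CPM on a log axis for 12 clock genes in the 4 chow libraries, 1 symbol per library. Library 5 stands above the others for Dbp, Per3, Ciart, Bhlhe41, Tef, Usp2 and Per2 and below them for Arntl and Npas2, while library 12 lies with or near the CCl4 libraries.

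Single genes also differed within the control pair beyond 4-fold. Among 10291 genes with at least 5 CPM in either library, 28 were past 4-fold higher in library 12, 12 of them pancreas genes, and 13 were higher in library 5. In the CCl4 pair 12 genes were past 4-fold higher in library 17 and 13 in library 16, among 10594. Besides the pancreas and clock genes, library 12 was higher in the neutrophil granule genes Ngp (0.325 against 10.5 CPM) and Ltf (1.24 against 12.6 CPM). It was also higher in the macrophage genes Gpnmb and Mmp12, the latter at 1.11 in library 5 and 15.5 CPM in library 12. Without a minimum level, 2 of the 219 called genes, Cxcl13 and Knstrn, differed past 4-fold between the controls (ratio with a prior count of 2).

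The CCl4 contrast at day 0 (libraries 1 and 2 of OO against 3 and 4 of CCl4, before the second phase) and that under ethanol at day 20 (libraries 13 to 15 of OO against 18 to 20 of CCl4) share no library with the chow contrast. The ethanol arms also had a high-fat diet, with up to 25 g/kg of ethanol a day for 3 weeks. At day 0 the same fit called 367 genes (2.48%), 1.13% higher and 1.35% lower, and under ethanol 3546 (24%), 12.7% higher and 11.3% lower. Of the 161 genes called higher under chow, 151 had the same sign at day 0, 31 of them called and 1 other called in the opposite direction, and 155 had the same sign under ethanol, 149 of them called and 3 others called in the opposite direction. Of the 58 called lower, 43 had the same sign at day 0, with 19 called and 4 others called opposite, and 55 under ethanol, with 48 called and 1 other called opposite. The share of all tested genes with the same sign is not given here, and the contrasts come from the same fit.

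Glul and Oat were called lower in all 3 settings, while Slc1a2 was not called at day 0 (log2 change -1.81, edgeR adjusted p = 0.333). The log2 change of Glul was -2.40 at day 0, -3.15 under chow and -2.14 under ethanol, each called, and the differences were not called (edgeR adjusted p = 0.556 and 0.445). That of Oat was -1.60 at day 0, -4.64 under chow and -2.56 under ethanol. The chow effect on Oat differed from that at day 0 by -3.03 (edgeR adjusted p = 0.00424). It differed from that under ethanol by -2.08 (edgeR adjusted p = 0.04). With ethanol, Oat was at 531, 384 and 389 CPM in OO and 80.7, 86.3 and 53.8 CPM in CCl4. The OO level with ethanol was thus below both chow controls, and the CCl4 libraries with ethanol and with chow overlapped. The difference from day 0 was called in all 9 analyses with libraries left out, and that from ethanol in 3 of 11 (adjusted p of 0.0136 to 0.21). Cyp2c29 changed by -0.09 at day 0, -1.98 under chow and -0.69 under ethanol. Its difference from day 0 was called (edgeR adjusted p = 0.0213) and that from ethanol was not (0.168). In OO Cyp2c29 was at 8476 to 9770 CPM with ethanol, against 1350 and 1018 CPM with chow.

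The mitotic and matrix genes gave no call in the tests of the difference between settings. Mki67 changed by 2.29, 2.91 and 4.57 on the log2 scale at day 0, under chow and under ethanol, with edgeR adjusted p = 0.858 and 0.445 for the 2 differences. Mmp2 changed by 2.42, 2.45 and 2.69. None of the 28 cell cycle genes and 30 matrix genes was called in either difference, which does not show that the effects were alike. Over the 2 differences 50 genes (0.338%) were called against day 0, 20 higher (0.135%) and 30 lower (0.203%) under chow. Against ethanol 17 (0.115%) were called, 14 higher (0.0947%) and 3 lower (0.0203%).

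Acute-phase genes separated chow from day 0, and 7 of the 28 were called in that difference, all higher under chow. Lcn2 changed by -6.76 on the log2 scale at day 0 and by 0.58 under chow (difference, edgeR adjusted p = 0.0145), and Saa1 by -6.12 and -0.71 (adjusted p = 0.04). Lcn2 was at 1174 and 277 CPM in the OO libraries of day 0 and 8.58 and 4.55 CPM in the CCl4 libraries of day 0. All 4 chow libraries thus lay above the CCl4 libraries of day 0. Got1 and Elovl5 were higher with CCl4 at day 0 (1.25 and 1.20) and lower under chow (-1.01 and -0.79), and both differences were called (edgeR adjusted p = 0.00608 and 0.00287). Elovl5 was at 845 and 616 CPM in the chow controls and 268 and 260 CPM in OO at day 0. With CCl4 it was at 450.5 and 394 CPM under chow, above OO at day 0, and 622 and 593 CPM at day 0. Got1 was at 254 and 203 CPM in the chow controls and 148 and 125 CPM in OO at day 0, with CCl4 under chow at 122 and 104 CPM.

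Glutathione genes separated chow from ethanol, with 5 of 27 called in that difference, all higher under chow. Gsta1 changed by 3.50 under chow and -2.31 under ethanol (difference, edgeR adjusted p = 0.0109, called in 7 of 11 analyses with libraries left out), and Cbr3 by 2.38 and -3.14 (adjusted p = 0.000412). Gsta1 was at 52.9, 65.1 and 85.4 CPM in the OO libraries with ethanol and 22, 11.1 and 7.32 CPM in the CCl4 libraries with ethanol. The OO level with ethanol was thus above both the chow controls and the CCl4 libraries with ethanol. The same held for Cbr3, at 31.8, 31.0 and 16.6 CPM in OO and 2.95, 3.00 and 3.03 CPM in CCl4 with ethanol. Under chow Cbr3 was at 0.715 and 0.869 CPM in OO and 3.15 and 5.11 CPM in CCl4. Fabp5, a fatty acid binding protein, was at 134 and 75.7 CPM in OO and 34.1 and 44 CPM in CCl4 under chow, with log2 changes of -1.42 under chow and 2.50 under ethanol.

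**Figure D5:**
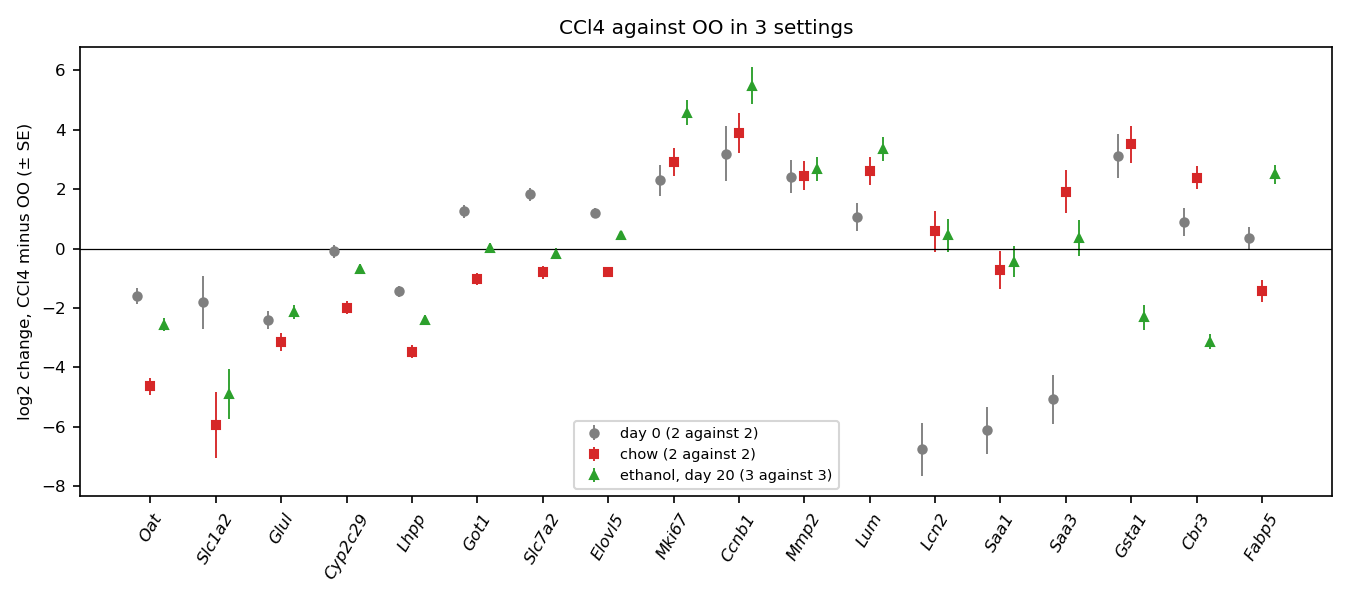
log2 change of CCl4 minus OO (points) with its standard error (bars) for 18 genes at day 0 (2 libraries against 2), under chow (2 against 2) and under ethanol at day 20 (3 against 3). Oat, Glul and Lhpp lie below 0 in all settings, Lcn2 and Saa1 are far below 0 only among the day 0 points, and Gsta1 and Cbr3 are above 0 under chow and below 0 under ethanol.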

How the data were processed

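Liver mRNA libraries (Illumina TruSeq mRNA kit, per the labels' protocols) were aligned by the authors with GSNAP to mm10, per the submitters' processing notes, which also name DESeq2 1.12.3. The authors deposited 1 table of whole-number read counts for each library, with genes by symbol. The counter, its annotation and its strand setting were not given in the sources used here, so overlapping antisense genes cannot be separated. The 5 entries for reads given to no gene were left out (gene counts were 44.5% to 48.7% of the reads listed in the chow libraries). Table names give 28D where labels give day 20 or 23, and the labels were followed.

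Counts were TMM-scaled, filtered with filterByExpr and fitted in edgeR 4.0.16 (R 4.3.3) with 1 mean for each of 7 groups over all 15 libraries (8 residual degrees of freedom, common dispersion 0.0409). Groups of the contrast have n = 2. Calls are quasi-likelihood tests with Benjamini-Hochberg adjusted p under 0.05 over all genes. The script was tested on simulated data. Log2 ratios between 2 single libraries used a prior count of 2.

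The comparison, the 38 gene lists and the rules were chosen with earlier results of these data known, so no list is independent evidence of its direction. Named genes are the 12 largest called changes in each direction with at least 5 CPM in the higher group and no overlap (leaving out pancreas, unnamed, immunoglobulin, T cell receptor and Mup genes), up to 3 members per list with at least 2 calls or the 1 called member, 30 fixed genes, up to 6 genes per direction of each tested difference, and pancreas genes of at least 1 CPM. Other members of the lists were named after their values were seen. The comparison was repeated with DESeq2 1.42.0, with limma-voom (limma 3.58.1), also blocked by lane, with RLE scaling, without a filter, with 1 CPM required in 2 libraries, with glmTreat at a fold of 1.5, and with the pancreas list, groups outside the contrast, libraries 6 and 12, or each library left out. Symbols of 23636 genes matched GENCODE M21 for coordinates.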

Additional observations from a re-analysis of the deposited data

Results flagged for a closer look

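The following genes had a CCl4 effect under chow that differed from the effect at day 0 or under ethanol by the test of the difference itself (edgeR, adjusted p under 0.05). They are the largest such differences per direction with no overlap between the chow groups' libraries, given as log2 change under chow minus log2 change in the other setting.

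Against day 0, the effect under chow was higher for the serum amyloid gene Saa3 by 7.0, the acyltransferase gene Acnat2 by 4.64, the lectin gene Cd207 by 3.70, Syt12 by 2.72, Pdzrn3 by 2.21 and the oxysterol hydroxylase gene Cyp39a1 by 2.19. Of these, Cyp39a1 was also called higher within chow, where its OO libraries were below those of day 0 (5.46 and 6.80 against 21.5 and 31.9 CPM), and Saa3, Acnat2, Cd207, Syt12 and Pdzrn3 were called lower with CCl4 at day 0. The difference was -3.56 for the lectin gene Clec2h, -3.52 for Adgrf1, -3.03 for Oat, -3.03 for Lrit2, -2.69 for the GABA receptor gene Gabbr2 and -2.63 for the arginine carrier gene Slc7a2. Slc7a2 was at 1002 and 714 CPM in OO and 498 and 487 CPM in CCl4 under chow, and its log2 change was 1.83 at day 0 and -0.80 under chow. All 12 kept their direction in the 9 analyses with 1 library or libraries 6 and 12 left out. Acnat2, Cd207, Oat and Slc7a2 were called in all 9 and Pdzrn3 in none. The other genes, among them Saa3 with the largest difference, were called in only some. Without CCl4 day 0 library 3 or 4, or OO chow library 5, 4 of the 12 were called each time.

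Against ethanol, the effect under chow was higher for Gsta1 by 5.81, Cbr3 by 5.52, the P450 gene Cyp2a5 by 4.79, the efflux pump gene Abcc4 by 3.08, the oxysterol hydroxylase gene Cyp7b1 by 2.76 and the small heat shock gene Hspb1 by 2.38. The difference was -3.92 for Fabp5, -2.08 for Oat and -1.26 for the elongase gene Elovl5. In Oat the OO libraries with ethanol, at 384 to 531 CPM, were below both chow controls (1305 and 1059 CPM). In Elovl5 they were too, at 211 to 242 CPM against 845 and 616 CPM. In Gsta1 and Cbr3 they were above both chow controls, at 52.9 to 85.4 and 16.6 to 31.8 CPM. Cyp2a5 had a log2 change of -6.63 under ethanol and -1.84 under chow, and was at 426 and 200.3 CPM in OO and 82.5 and 92.2 CPM in CCl4 under chow, where it was not called. Abcc4 and Cbr3 were called in all 11 analyses with libraries left out, and without OO chow library 5 or CCl4 chow library 17 they were the 2 of the 9 that were called.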

How the results depend on the processing

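No paired analysis was possible because the groups compared share no library number. The 219 calls under chow became 580 with DESeq2 (404 higher, 176 lower, sharing 216), 365 with no filter, 358 without libraries 6 and 12, 139 with limma-voom and lane as a random block, and 73 against a fold of 1.5. They ran from 19 to 362 with 1 library left out, 19 without library 17 (6 higher, 13 lower), 28 without 5 (3 higher, 25 lower) and 362 without 12, so that lower calls became the majority without 5 or 17. The 50 genes that differed from day 0 became 245 with DESeq2 (107 higher, 138 lower), 153 with only the groups of the contrast, 88 with no filter (48 higher, 40 lower) and 19 against a fold of 1.5. They ran from 8 to 56 with 1 library left out, 29 or fewer without library 1, 3, 4, 5, 16 or 17 (13, 8, 10, 11, 29 and 15). Higher calls became the majority with no filter, without library 1 (7 and 6) and without library 2 (26 and 18). The 17 that differed from ethanol became 125 with DESeq2, 32 with no filter, 10 without libraries 6 and 12, 7 against a fold of 1.5 and 4 with only the groups of the contrast. They ran from 2 to 51 with 1 library left out, 2 without library 5 or 17, 9 without 16, 10 without 12 and 51 without 19 (29 higher, 22 lower). For named genes 1332 values kept their direction and side of the threshold, 215 lost a call, 47 gained one, 21 went to 0.00 and 14 changed sign, none of them called before or after. With 1 library left out, the log2 changes of genes with a sign change ran from -0.03 to 1.70 for Lcn2, -1.22 to 0.13 for Saa1, -0.47 to 0.12 for Hp, -0.03 to 0.76 for Acta2, -0.73 to 4.90 for Mmp12, -0.02 to 1.87 for Spp1, -1.38 to 0.09 for Cela1, -10.01 to 2.40 for Cpa1, -4.17 to 0.05 for Ctrl and -9.60 to 2.40 for Prss2. Without libraries 6 and 12 they were 0.11 for Saa1, 0.10 for Hp, 0.07 for Cela1 and 0.03 for Ctrl. RLE scaling moved the median of all genes by 0.020 on the log2 scale. The cause of these shifts was not tested. With 1 library left in a group, its spread was taken from the rest.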

Other observations

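Of the 219 called genes 166 were on none of the 38 lists, and the following were picked from them after their values were seen. Among those lower, the natriuretic peptide receptor gene Npr2 was at 37.6 and 38.6 CPM in OO and 8.85 and 5.91 CPM in CCl4, with log2 changes of -2.36 at day 0, -2.37 under chow and -2.48 under ethanol. The orexin receptor gene Hcrtr2 and the estrogen-related receptor gene Esrrg were called at low levels, at most 1.89 and 1.76 CPM in any of the 4 libraries.

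Among those higher, the Golgi protein gene Golm1 was at 6.96 and 10.6 CPM in OO and 34.2 and 45.1 CPM in CCl4, with a log2 change of 0.08 at day 0 and 2.18 under chow. The prostaglandin reductase gene Ptgr1 was at 3.19 and 3.48 CPM in OO and 13.3 and 16.1 CPM in CCl4 (log2 change 2.14, edgeR adjusted p = 0.00637), against -0.03 at day 0. The endothelin receptor gene Ednrb was at 16.1 and 22.3 CPM in OO and 39.6 and 43.4 CPM in CCl4. Glutathione synthetase (Gss) was called higher by 0.74 on the log2 scale under chow, and changed by -0.02 at day 0 and 0.07 under ethanol.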
